A study of Mus musculus with 6 samples.

Results

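MiR-143 and miR-145, the miRNA pair of vascular smooth muscle cells (SMCs), were examined in aortas of mice with and without an endothelial deletion of Dicer. They are 2 of the 596 mouse miRNA assays in the table, chosen by exact name, so that passenger strands (marked by an asterisk) were not counted as members. All 6 mice lacked apolipoprotein E (Apoe-/-) and carried VE-Cadherin-CreERT2, a Cre recombinase that is driven by an endothelial promoter and becomes active with tamoxifen. The 3 EC-Dicerflox mice (VE-Cadherin-CreERT2Dicer1flox/flox/Apoe-/-) had both Dicer1 alleles flanked by loxP sites, and the 3 EC-DicerWT mice (VE-Cadherin-CreERT2Dicer1WT/WT/Apoe-/-) were littermates with wild-type alleles. Both groups received tamoxifen daily for 5 days, at a dose of 2 mg for each 20 g of body weight, and, from an age of 6 to 8 weeks, a high-fat diet (HFD) for 4 weeks. By the labels these were males, whereas the paper's methods speak of female mice. RNA of the whole aorta was measured, while the deletion was directed at endothelial cells (ECs), which form the inner lining, and not at the SMCs that make up most of the wall. Fewer cells of a type and less RNA per cell therefore cannot be told apart.

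Dicer cuts hairpin precursors into mature miRNAs, which guide Argonaute proteins to messenger RNAs and lower their translation or stability. MiR-143 and miR-145 are made from the same long primary transcript, and their genes Mir143 and Mir145a lie within the bounds of Carmn, a long noncoding RNA gene, according to RefSeq (mouse assembly GRCm38.p6). In differentiated SMCs they are highly abundant, are switched on by serum response factor with myocardin, and favour the contractile state, in part through repression of KLF4, KLF5 and ELK1. They fall when SMCs turn to the synthetic, proliferating state, as in vascular injury.

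The mature sequences shown here are those of miRNAs whose CT kept the most even distance from either member across the aortas, since these distances are described further on. Of these 10 miRNAs, 5 per member, 3 had an entry of exactly the same name in the RefSeq miRNA table of GRCm38.p6. They are written 5′ to 3′ with the seed, bases 2 to 8, which pairs with the target, in capitals, and the 3 seeds differ from each other.
miR-345-5p: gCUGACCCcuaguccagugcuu
miR-434-5p: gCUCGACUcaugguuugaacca
miR-721: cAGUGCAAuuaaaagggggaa
MiR-345-5p, at an even distance from miR-143, lies at chr12:108836989-108837010 on the plus strand. MiR-434-5p, at an even distance from miR-145, lies at chr12:109594528-109594549 on the plus strand within the bounds of Rtl1, and miR-721, whose CT was nearly even like that of miR-145 but did not rise and fall with it, at chr5:136375777-136375797 on the minus strand within the bounds of Cux1.

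Expression was read as the CT, the PCR cycle at which an assay's fluorescence crosses a threshold. A higher CT means less RNA, 1 cycle stands for a factor of 2 when amplification is complete, and 40 marks a well without signal. By the style of their numbers, the assays form sets of 335 and 261, taken here as the cards of the array, and both members are in the larger set. Between 375 and 415 miRNAs per aorta had a CT under 40, and 350 miRNAs did so in all 6. The median CT of these 350 was 26.81, 26.42 and 28.18 in EC-Dicerflox replicates 1, 2 and 3, and 26.60, 26.84 and 27.46 in EC-DicerWT replicates 1, 2 and 3. Replicate 3 of either group thus stood apart with later CT values, EC-Dicerflox replicate 3 most of all. The members' slopes, spreads, ratio, fold changes and distances in CT, and the marker differences from the mean of both, are also given without that aorta. Fold changes and overlap of other miRNAs are given for all 6 aortas only. The number of arrays, 3 per group, limits the precision.

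MiR-145 was the miRNA with the lowest mean CT of all 596 assays, and miR-143 was the eighth. This order compares CT across both sets of assays, and with U6 of the same set subtracted from each CT miR-145 was number 3 and miR-143 again number 8. The CT of miR-145 was 14.79, 14.69 and 14.81 in EC-Dicerflox and 14.89, 14.73 and 14.96 in EC-DicerWT aortas. All 6 values lay within 0.265 cycles, the EC-DicerWT replicate 3 being the highest. The CT of miR-143 was 17.11, 16.86 and 18.12 in EC-Dicerflox and 16.98, 17.20 and 17.88 in EC-DicerWT aortas. Its values spread over 1.26 cycles, with replicate 3 of each group above the other 4 aortas, and the groups overlapped. By aorta, miR-145 held rank 1 in 5 of 6 samples and rank 2 in EC-Dicerflox replicate 2, where miR-2134 was at 14.64. MiR-143 held ranks between 7 and 9. Within its own set of 335 assays miR-145 was number 1 and miR-143 number 5, after miR-145, miR-24, miR-140 and miR-30c.

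**Figure D1:**
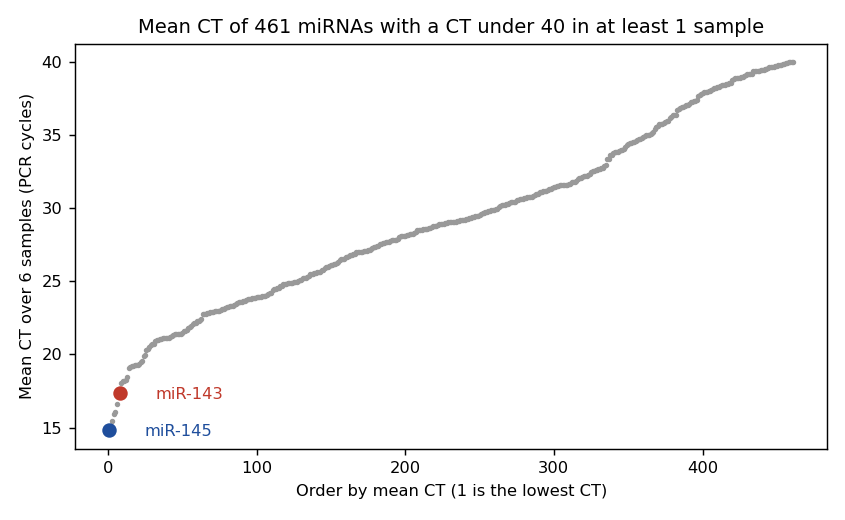
Mean CT over the 6 aortas (vertical axis, PCR cycles) of the 461 miRNAs detected (CT under 40) in 1 or more aortas, in order of mean CT (horizontal axis). MiR-145 (blue) is first at 14.81 and miR-143 (red) is eighth at 17.36, in raw CT across both sets of assays.

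The order around the members was in part within the spread between samples. MiR-2134, next after miR-145, had a CT that was 0.33 ± 0.45 cycles later (mean ± SD over 6 samples, later in 5 of 6), so that this step did not exceed its spread. Without EC-Dicerflox replicate 3 the step was 0.17 ± 0.23 cycles (later in 4 of 5). MiR-24, the next miRNA of the same set and known for favouring SMC growth, was 1.15 ± 0.40 cycles later than miR-145, in 6 of 6 samples. MiR-30c and miR-143 could not be put in order: the CT of miR-30c minus that of miR-143 lay between -0.24 and 0.29 cycles (SD 0.18), with miR-30c earlier in 4 of 6. MiR-140 was earlier than miR-143 by 0.531 to 0.938 cycles and miR-30b later by 0.379 to 0.957 cycles, each in 6 of 6 samples. The endothelial miR-126-3p, which promotes vascular integrity, was later than miR-143 by 0.85 ± 0.30 cycles, in 6 of 6. Without EC-Dicerflox replicate 3, miR-24 was 1.03 ± 0.30 cycles later than miR-145, miR-126-3p 0.82 ± 0.32 later than miR-143, and miR-140, miR-30c and miR-30b were -0.72, 0.010 and 0.70 cycles from miR-143, so that the mean of miR-30c turned sign. An order of CT also depends on how well each assay amplifies, and so describes these assays.

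If every assay amplified completely and alike, miR-145 would account for 13.4% to 26.1% and miR-143 for 2.62% to 3.34% of the summed signal (2 to the power of minus CT) of all mouse assays. Both ends of the range for miR-145 were EC-Dicerflox aortas, replicate 2 with the lowest and replicate 3 with the highest share. The same sum over miR-126-3p and miR-126-5p of ECs came to 1.38% to 2.73% in EC-Dicerflox and 1.41% to 1.73% in EC-DicerWT aortas. The 4 leukocyte miRNAs (miR-142-3p, miR-142-5p, miR-150 and miR-223) together gave 0.482% to 0.704% in EC-Dicerflox and 0.546% to 1.15% in EC-DicerWT aortas. The pair thus had several times the summed signal of the endothelial or leukocyte markers in every aorta. Among striated muscle miRNAs, miR-133a had a CT of 18.40 to 20.21, while miR-208b and miR-499, both tied to myosin genes of the heart, were at 40 in all 6 aortas. A further assay of this heart family, miR-208, which was looked at after its values were seen, had a CT of 32.92, 34.49 and 40 in EC-Dicerflox and 40, 33.02 and 40 in EC-DicerWT aortas, so that it was under 40 in 3 of 6.

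The passenger strand of miR-145 was close to the limit. MiR-145* had CT values of 36.22, 36.40 and 35.11 in EC-Dicerflox and 33.99, 39.90 and 38.92 in EC-DicerWT aortas. It crossed the threshold 19.1 to 25.2 cycles later than miR-145 of the same aorta. In EC-Dicerflox over EC-DicerWT mice it was estimated at 1.84 log2 units (standard error 1.69, limma adjusted p = 0.923), and the groups overlapped. The table holds 0 rows named miR-143*.

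MiR-145 hardly moved between aortas, and miR-143 moved with the rest of the array. Over the 6 aortas the SD of the CT was 0.098 cycles for miR-145, the smallest of the 350 miRNAs, against a median SD of 0.865 cycles. The next smallest were 0.207 for miR-223, a miRNA of myeloid cells, and 0.214 for miR-721. The SD of miR-143 was 0.517 cycles, with 31 of the 350 miRNAs below it. Without EC-Dicerflox replicate 3, a setting chosen after seeing the data, the SD over the other 5 aortas was 0.109 cycles for miR-145, still the smallest, and 0.40 for miR-143, number 53 of 350 from the smallest, against a median of 0.659. Over the 4 aortas that are replicates 1 and 2, miR-145 was number 2 at 0.086 cycles and miR-143 number 13 at 0.148, against a median of 0.397. In replicate 3 of both groups, the mean CT was 0.97 cycles later than in replicates 1 and 2 for miR-143 and 0.10 cycles later for miR-145, against a median of 1.31 cycles over the 350 miRNAs.

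**Figure D2:**
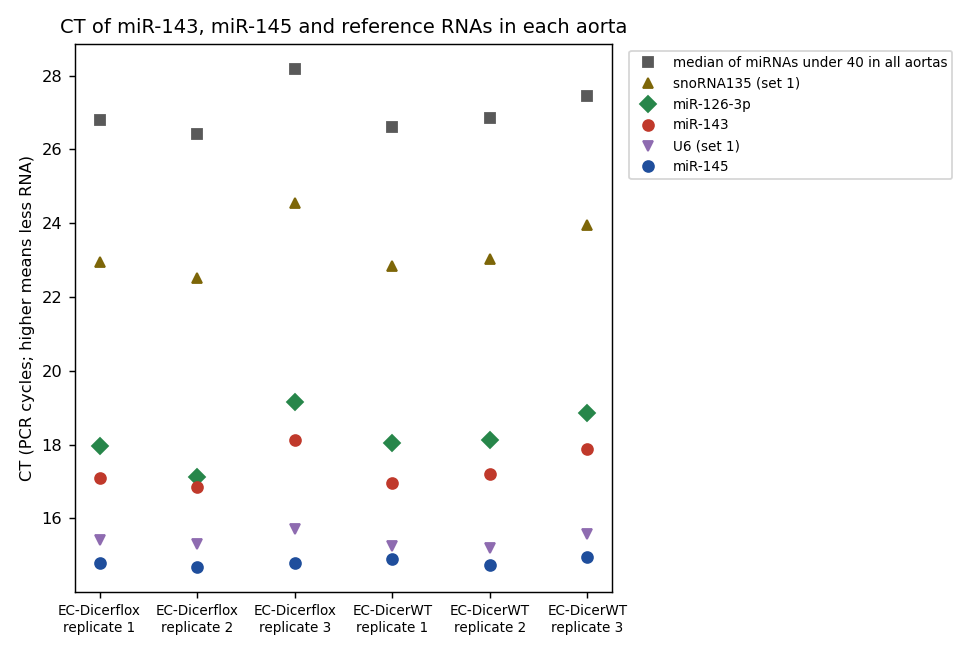
CT (vertical axis, PCR cycles) of miR-145, miR-143, miR-126-3p, U6 and snoRNA135 of the set that holds the members, and the median of the 350 miRNAs, each as 1 point per aorta (horizontal axis). MiR-145 stays between 14.69 and 14.96, while miR-143 and the median rise in replicate 3 of both groups.

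The shift of each miRNA with the sample was measured as the slope of its CT on the median CT of the 350 miRNAs over the 6 aortas. The slope was 0.77 cycles per cycle for miR-143 and 0.053 for miR-145, where a miRNA that follows the sample fully has 1, and the median over the 350 was 1.07. The 350 include both members. With that median slope, following the sample was common among them, so the relation below is not particular to miR-143. For miR-143, Pearson's r was 0.976 and Spearman's rho 1 (exact permutation of the 6 samples, p = 0.00139 and 0.00278, and 0.00417 and 0.00833 after Benjamini-Hochberg adjustment over 3 relations, the third being the CT difference between the members). For miR-145, r was 0.357 and rho 0.486 (exact permutation, p = 0.482 and 0.356, also after adjustment). Without the 2 aortas farthest from the median, which were replicate 3 of each group, r was 0.983 for miR-143 and 0.177 for miR-145 over the other 4. A slope below that of miR-145 was found for 19 of the 350 miRNAs, and 24 had one under 0.2. Without EC-Dicerflox replicate 3 the slope was 1.01 for miR-143 and 0.20 for miR-145 against a median of 1.24, and over the 4 aortas that are no replicate 3 the values were 0.74 and 0.078 against 1.04.

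The median slope of the miRNAs also went with the level of their assays. For the 8 miRNAs with a mean CT under 18, both members included, the median slope was 0.64, for the 17 with a mean CT from 18 to 20 it was 0.98, and for the 101 from 20 to 25 it was 1.09. Directly after miR-145 in the order, miR-2134, miR-1937b, miR-24, miR-1937c and miR-140 had slopes of 0.67, 0.38, 0.64, 0.42 and 0.65. U6, a small nuclear RNA with a CT between 15.19 and 15.72 in the members' set, had a slope of 0.28, and snoRNA202, between 17.23 and 18.68, one of 0.84. In the set without the members, U6 had a slope of 0.65 at a mean CT of 16.21, and snoRNA202 one of 1.15 at 16.80. Among the miRNAs the median slope was thus smaller at low CT, which the control RNAs did not follow throughout. The part of low CT in the even values of miR-145 was not tested.

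**Figure D3:**
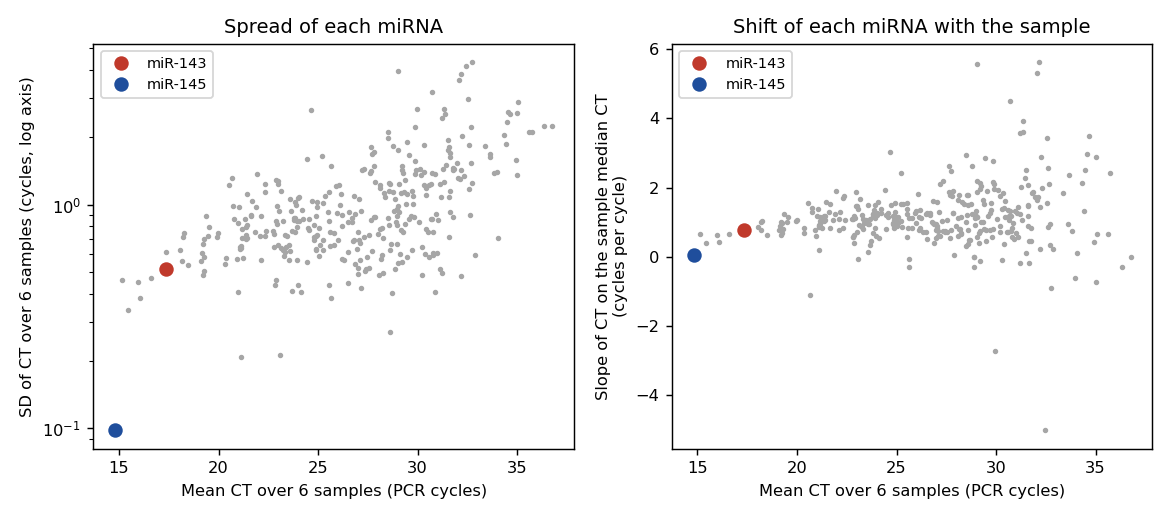
Each point is 1 of the 350 miRNAs, by its mean CT (horizontal axes, PCR cycles). The left panel gives the SD of the CT over 6 aortas (cycles, log axis), where miR-145 (blue) is lowest at 0.098 and miR-143 (red) is at 0.517. The right panel gives the slope of the CT on the sample median (cycles per cycle), at 0.053 and 0.77.

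The ratio of both members was taken as the CT of miR-143 minus the CT of miR-145 in the same aorta, a measure that needs no control RNA. It was 2.32, 2.17 and 3.31 cycles in EC-Dicerflox and 2.09, 2.46 and 2.93 cycles in EC-DicerWT aortas. MiR-145 was thus ahead of miR-143 in all 6, by an apparent factor of 4.24 to 9.94 if both assays amplified completely, and replicate 3 of each group had the highest values. The mean was 2.60 ± 0.62 cycles (SD, n = 3) in EC-Dicerflox and 2.49 ± 0.42 cycles (SD, n = 3) in EC-DicerWT mice. The difference of 0.11 cycles did not separate the groups (exact permutation test, two-sided p = 0.8, where 0.1 is the smallest p that 3 against 3 allows), and its 95% interval of -1.10 to 1.31 cycles leaves room for more than a doubling of the ratio either way. Its sign turned without EC-Dicerflox replicate 3 (-0.25 cycles), without EC-DicerWT replicate 1 (-0.094), with replicate 3 of both groups left out (-0.030) and between medians (-0.145). In pairs of the same replicate number it was 0.23, -0.29 and 0.39 cycles for replicates 1, 2 and 3.

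**Figure D4:**
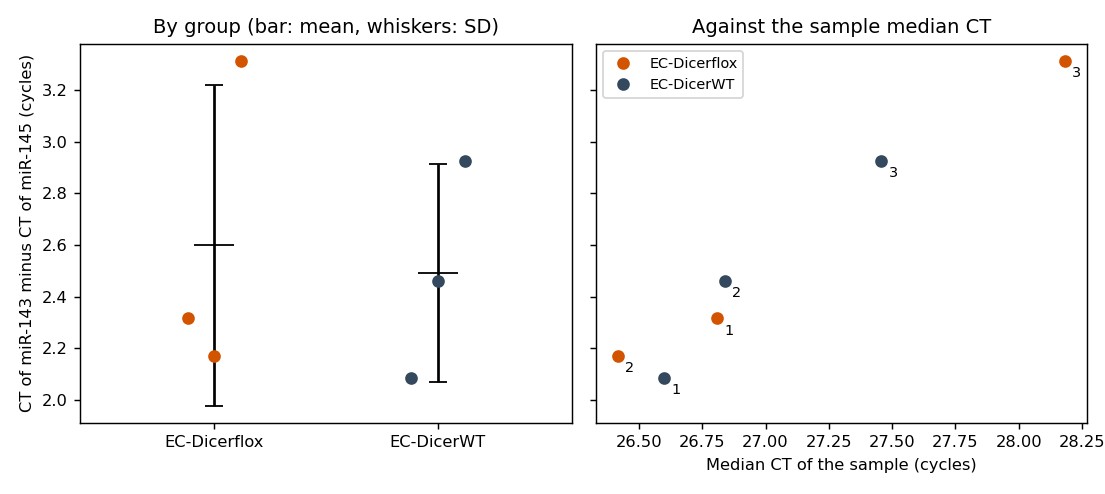
CT of miR-143 minus CT of miR-145 (vertical axis, cycles), 1 point per aorta, by group with mean and SD (left) and against the median CT of the 350 miRNAs (right, replicate numbers beside the points). The groups overlap at 2.60 ± 0.62 and 2.49 ± 0.42 cycles, and the difference runs from 2.09 cycles in EC-DicerWT replicate 1 to 3.31 in EC-Dicerflox replicate 3, the aorta with the latest median CT.

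The slope of this difference on the median CT was 0.72 cycles per cycle over the 6 aortas. By arithmetic it is the slope of miR-143 minus that of miR-145, and with miR-145 nearly even it restates the shift of miR-143 with the sample. It was 0.81 without EC-Dicerflox replicate 3, and 0.66 with replicate 3 of both groups left out. The ratio ranged over 1.23 cycles among the aortas, while the group means lay 0.11 cycles apart, and the part of the overall CT of the sample in the ratio was not tested.

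To ask whether the loss of endothelial Dicer changed the members, each CT was subtracted from the average over U6 and snoRNA135 in the same aorta (4 wells), so that a higher value means more miRNA on a log2 scale. For miR-143 this level was 1.78, 1.84 and 2.10 in EC-Dicerflox and 1.84, 1.75 and 1.73 in EC-DicerWT aortas. EC-Dicerflox replicate 3 was the highest, and the groups overlapped. The log2 fold change was 0.14 with a standard error of 0.23, a factor of 1.10 with a 95% interval of 0.734 to 1.65 (limma, unadjusted p = 0.572, adjusted p = 0.923; exact permutation test of the level, two-sided p = 0.2). For miR-145 the level was 4.10, 4.01 and 5.42 in EC-Dicerflox and 3.92, 4.21 and 4.65 in EC-DicerWT aortas. Replicate 3 was the highest of each group, and again the groups overlapped. The log2 fold change was 0.25 with a standard error of 0.49, a factor of 1.19 with a 95% interval of 0.508 to 2.78 (limma, unadjusted p = 0.630, adjusted p = 0.923; exact permutation test, two-sided p = 0.8).

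Neither member passed the test, and neither had groups that did not overlap. Over all miRNAs tested, 14 of 461 or 3.04% had an unadjusted limma p under 0.05 (9 or 1.95% lower and 5 or 1.08% higher in EC-Dicerflox mice), 0 or 0% an adjusted p under 0.05, and 48 or 10.4% had groups that did not overlap. The median log2 fold change over the 461 was 0.082, and 53.6% of them had a lower estimate than miR-143 and 64.2% a lower one than miR-145. In pairs of the same replicate number, the difference in level was -0.055, 0.094 and 0.38 for miR-143 and 0.18, -0.20 and 0.77 for miR-145. The pairs differed in sign for both members, with the highest value in replicate 3. Without EC-Dicerflox replicate 3 the log2 fold change was 0.042 for miR-143 and -0.21 for miR-145, and with replicate 3 left out of both groups the values were 0.020 and -0.011. With snoRNA202 as the control RNA the log2 fold change of miR-143 was -0.022. The sign was thus not the same under all settings for either member. Since the CT of miR-145 itself was nearly even, at 14.76 ± 0.064 (SD, n = 3) and 14.86 ± 0.11 (SD, n = 3) cycles, its normalized level carried, by construction, mostly the differences of the control RNAs, whose mean ranged from 18.70 to 20.22 cycles.

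**Figure D5:**
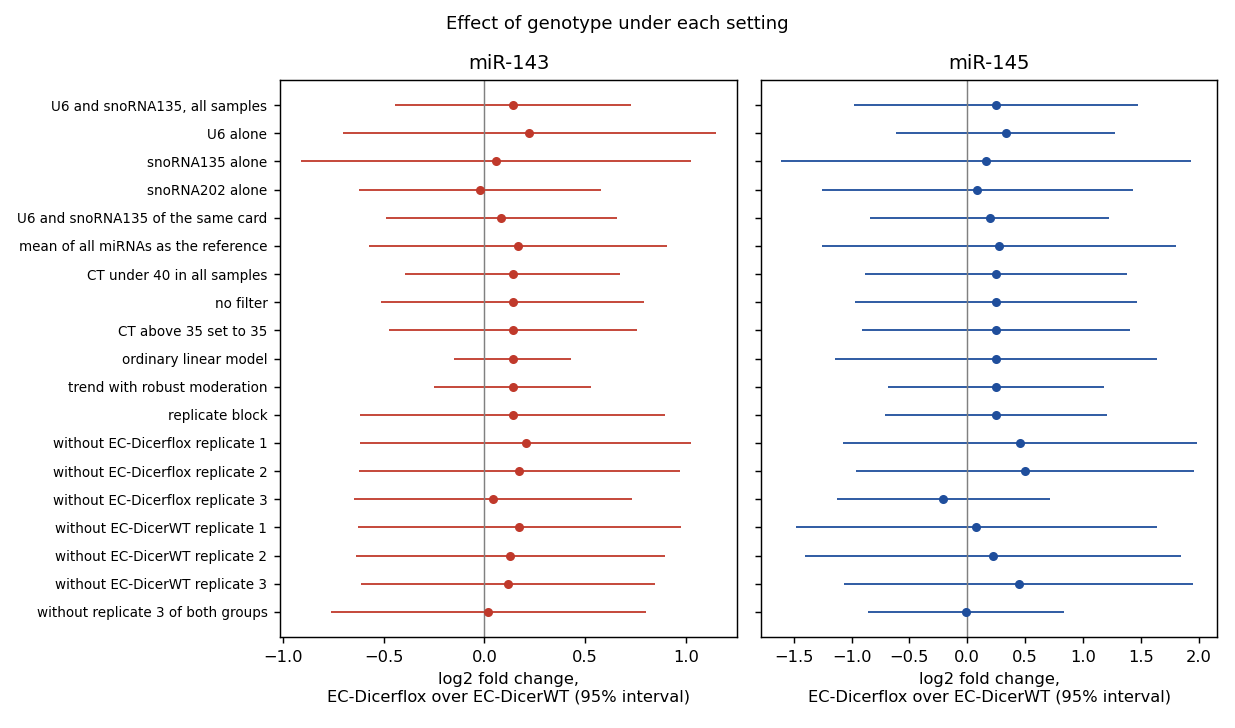
Log2 fold change of miR-143 (left) and miR-145 (right) in EC-Dicerflox over EC-DicerWT mice (horizontal axes, points) with its 95% interval (lines), for the control RNAs U6 and snoRNA135 in all samples (top) and each alternative setting below. Every interval spans 0, and the point of miR-145 falls to -0.21 without EC-Dicerflox replicate 3.

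The members were also set against marker miRNAs of other cells in the same aorta, again without a control RNA. The CT of miR-126-3p of ECs minus the mean CT of both members was 2.02, 1.35 and 2.68 cycles in EC-Dicerflox and 2.11, 2.15 and 2.45 cycles in EC-DicerWT aortas. The groups overlapped, and the difference of -0.22 cycles was not separated (exact permutation test, two-sided p = 0.7, or 0.8 after Benjamini-Hochberg adjustment over the 3 markers). Its sign rested on single aortas, with -0.55 cycles without EC-Dicerflox replicate 3 and 0.12 without EC-Dicerflox replicate 2. For miR-142-3p of leukocytes it was 7.0, 6.58 and 7.77 cycles in EC-Dicerflox and 5.86, 7.0 and 6.76 cycles in EC-DicerWT aortas. The difference of 0.58 cycles, by which miR-142-3p was the later in EC-Dicerflox mice relative to the members, was within the spread too (exact permutation test, two-sided p = 0.5, adjusted p = 0.8). It was 0.25 cycles without EC-Dicerflox replicate 3, 0.23 without EC-DicerWT replicate 1 and up to 0.84 with another aorta left out. For miR-133a of muscle it was 0.063 cycles (exact permutation test, two-sided p = 0.8, adjusted p = 0.8), and it ran from -0.24 cycles without EC-Dicerflox replicate 3 to 0.32 without EC-Dicerflox replicate 2. Against miR-143 alone, which moved with the sample as these markers do, the differences were -0.27 cycles for miR-126-3p, 0.52 for miR-142-3p and 0.0083 for miR-133a. The groups overlapped for all 3 markers against the mean of both members. The smallest p that this exact test of 3 against 3 allows is 0.1, which is above 0.05. The test therefore cannot decide whether the smooth muscle pair shifted against these endothelial, leukocyte or muscle markers. The difference for miR-142-3p stayed positive with any 1 aorta left out, whereas those for miR-126-3p and miR-133a changed sign.

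In the fit over all miRNAs, 0 of the 2 endothelial miRNAs passed an unadjusted limma p of 0.05, with estimates of 0.41 log2 units for miR-126-3p and 0.85 for miR-126-5p, and both had groups whose normalized levels did not overlap, against 10.4% of all miRNAs. Of the 4 leukocyte miRNAs 1 passed it, miR-142-5p, which was lower in EC-Dicerflox mice (log2 fold change -0.996, limma adjusted p = 0.923), against 3.04% of all miRNAs (1.95% lower), and their median was -0.40. Among the 2 listed erythroid (miR-451, miR-486), the 3 tested striated muscle (miR-1, miR-133a, miR-133b), the 3 mesenchymal (miR-199a-3p, miR-199a-5p, miR-214) and the 2 neuronal (miR-9, miR-124) miRNAs and miR-122 of hepatocytes, 0 passed, against the same 3.04%. Normalized levels of the groups also did not overlap for miR-142-5p and for miR-9 (log2 fold change 0.49), against the same 10.4%. They overlapped for the other leukocyte miRNAs and the rest of these lists. MiR-122 varied from a CT of 20.52 to 28.05, both in EC-Dicerflox aortas. The part of these cell types in the values of the members was not tested.

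Other miRNAs of the SMC state were taken from lists set by textbook roles. Those that favour the contractile state or restrain growth were miR-1, miR-10a, miR-100, miR-133a, miR-133b, miR-195, miR-204 and miR-365. MiR-1, miR-133a and miR-133b were also counted as striated muscle miRNAs above, so these lists are not independent. Of the 8 miRNAs of the contractile list, 0 passed an unadjusted limma p of 0.05, against 3.04% of all miRNAs. Their estimates were higher in EC-Dicerflox mice for 7 and lower for 1, with a median log2 fold change of 0.32 (over all 461 miRNAs, 251 were higher and 210 lower, with a median of 0.082), and the normalized levels of the groups did not overlap for 2 of 8, miR-195 and miR-204, against 10.4% of all miRNAs. MiR-195, which restrains SMC proliferation, had a normalized level of -1.71, -1.73 and -1.72 in EC-Dicerflox and -1.76, -2.45 and -1.96 in EC-DicerWT aortas. Before normalization it had a CT of 20.60, 20.43 and 21.95 in EC-Dicerflox and 20.57, 21.39 and 21.57 in EC-DicerWT aortas, where the groups overlapped, and its estimate was 0.34 log2 units (standard error 0.28). MiR-204, a brake on growth in pulmonary artery SMCs, was estimated at 0.46 log2 units (standard error 0.28, limma adjusted p = 0.923). MiR-10a and miR-100 varied most in this list. MiR-10a was at 20.63 in EC-DicerWT replicate 3 and between 22.55 and 24.44 elsewhere, and miR-100 at 18.47 in EC-Dicerflox replicate 3 and between 19.63 and 21.59 elsewhere.

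Of 8 miRNAs that favour growth or the synthetic state, 0 passed the same test, against 3.04% of all miRNAs. The estimates of 6 were higher and of 2, miR-222 and miR-138, lower in EC-Dicerflox mice, with a median log2 fold change of 0.19, against the same 251 higher and 210 lower of 461. Normalized levels of the groups did not overlap for 1 of 8, miR-146a, against 10.4% of all miRNAs. MiR-146a is an inhibitor of NF-κB signalling that is also tied to SMC proliferation, and its normalized level was -1.58, -1.50 and -1.51 in EC-Dicerflox and -2.16, -1.82 and -1.81 in EC-DicerWT aortas (log2 fold change 0.40, standard error 0.24, limma adjusted p = 0.923). MiR-21, a miRNA of proliferating SMCs, was estimated at 0.25 log2 units (standard error 0.24), and miR-221, which is induced by platelet-derived growth factor, at 0.0095 (standard error 0.23).

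The miRNAs at the most even distance from each member were found by the SD of their CT difference from it over the 6 aortas, among the 349 other miRNAs under 40 in all of them. For miR-143 the closest were miR-221 (SD of 0.107 cycles), miR-127 (0.108), miR-345-5p (0.113), miR-21 (0.126) and miR-24 (0.128), against a median SD of 0.524. All 5 belong to the members' set of assays. MiR-221, miR-21 and miR-24 are on the list for growth, which holds 8 of the 461 miRNAs tested. MiR-133a of the contractile list was number 22 of 349 (SD of 0.191 cycles). Whether either list lay closer to miR-143 than other miRNAs was not tested. Their mean CT was 0.857 to 1.12 cycles later in replicate 3 of both groups than in replicates 1 and 2, close to the 0.97 cycles of miR-143. For miR-145 the closest were miR-223 (0.205), miR-434-5p (0.229), miR-721 (0.297), miR-1937b (0.333) and miR-532-5p (0.342), against a median of 0.829. Since miR-145 itself hardly varied, this measure depends mostly on the SD of the other miRNA, which was 0.207, 0.270, 0.214, 0.338 and 0.408 cycles for these 5, so that it picks miRNAs of small spread and does not show that they move with miR-145. MiR-721 had its highest CT in EC-Dicerflox replicate 2, where miR-145 had its lowest, and its lowest in EC-DicerWT replicate 3, where miR-145 had its highest. MiR-223 was at 21.13, 20.79 and 21.40 in EC-Dicerflox and 21.22, 21.14 and 20.99 in EC-DicerWT aortas, so that it was nearly even at a mean CT of 21.11. MiR-721 ranged from 22.69 to 23.32 and miR-434-5p from 28.33 to 28.93. The members were not among each other's closest: miR-145 was number 163 of 349 for miR-143, and miR-143 number 28 for miR-145, with an SD of 0.479 cycles between them. Without EC-Dicerflox replicate 3, 2 of the 5 closest were the same for either member, miR-221 and miR-24 for miR-143 (SD of 0.073 and 0.110 cycles) and miR-223 and miR-434-5p for miR-145 (0.165 and 0.185), so the rest of each list of 5 depended on that aorta. The SD between the members was then 0.332 cycles, against medians of 0.451 for miR-143 and 0.609 for miR-145. MiR-145 was number 125 for miR-143, and miR-143 number 41 for miR-145. With replicate 3 of both groups left out, the SD between the members was 0.166 cycles, against medians of 0.347 and 0.403. MiR-145 was then number 49 for miR-143, and miR-143 again number 28 for miR-145. The SD between the members thus fell without the replicate 3 aortas, as did the medians, while the order seen from miR-145 came no closer than with all aortas.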

How the data were processed

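MiRNAs of 6 aortas were measured with TaqMan MicroRNA array cards. The methods of the paper state that reverse transcription and pre-amplification used the Megaplex pools for rodents. The authors deposited raw CT values, which are not normalized; threshold and baseline settings are not given in the sources used here. The 6 columns carry the names given in the labels, and 0 other columns hold sample values.

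Delta CT was taken against the mean of U6 and snoRNA135 (4 wells), reference RNAs that the methods name for single assays, and the groups were compared with limma 3.58.1 in R 4.3.3 (lmFit, eBayes) over the 461 miRNAs detected (CT under 40) in 1 or more samples, with Benjamini-Hochberg adjustment over all of them. For single values, exact two-sided permutation tests ran over all 20 arrangements, and for correlations over 720 orderings. The interval of the CT difference between members assumes equal variance. The fit was tested on simulated data.

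The members, lists and tests were chosen with earlier results of these data known. Named were both members, listed passenger strands, the lists of SMC and marker miRNAs, the control RNAs, and for each member the 5 miRNAs with the smallest SD of the CT difference and those next in mean CT; miRNAs of extreme spread and miR-208 were added after their values were seen. Alternatives were other control RNAs, filters, a cap at 35, an unmoderated or robust fit, a block for the replicate number, and fits or descriptions without single samples. Same-numbered samples of both groups deviated in the same way (r of 0.15, 0.22 and 0.43 over 350 miRNAs), but EC-Dicerflox replicate 1 with EC-DicerWT replicate 2 had r = 0.29 and the converse pair 0.12, so that the numbers did not tell replicates 1 and 2 apart; no source says that the number marks a litter or day. The replicates are labelled as biological replicates.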

Additional observations from a re-analysis of the deposited data

How the results depend on the processing

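The adjusted p-values of miR-143 and miR-145 were above 0.05 in all 18 alternative fits. Over 12 of them the log2 fold change ran from -0.022 to 0.22 for miR-143 and from -0.011 to 0.33 for miR-145, and over the 6 fits without 1 sample from 0.042 to 0.20 and from -0.21 to 0.50, respectively. The sign turned for miR-143 with snoRNA202 alone (-0.022), and for miR-145 without EC-Dicerflox replicate 3 (-0.21) and without replicate 3 of both groups (-0.011, chosen after seeing the data); the cause was not tested. With the replicate block the log2 fold changes were 0.14 and 0.25 (limma, adjusted p = 0.859 and 0.800), and no call on the members changed. MiRNAs with an unadjusted p under 0.05 numbered 14, but 9 with U6 alone, 24 with an ordinary linear model, and 12 to 22 when 1 sample was left out (22 without EC-Dicerflox replicate 1). The difference between groups in the CT of miR-143 minus that of miR-145 ran from -0.248 to 0.327 cycles without 1 sample, and was -0.030 without replicate 3 of both groups and -0.145 between medians. The marker differences changed sign without EC-Dicerflox replicate 2 for miR-126-3p (0.117 cycles) and without EC-Dicerflox replicate 3 (-0.243), EC-DicerWT replicate 1 (-0.0018) or EC-DicerWT replicate 2 (-0.0093) for miR-133a. MiR-145 stayed first in mean CT without any 1 sample and was number 3 when U6 of the same card was subtracted, and miR-143 was number 7 or 8.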
